A study of Homo sapiens with 6 samples.

Results

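The 9 genes described here supply the activated sugars from which glycans are built: HK1, GPI, MPI, PMM1, PMM2, GMPPA, GMPPB, UGP2 and UGDH. They were chosen by symbol, by a rule that uses no measured value but was set with earlier results of these data known, and every probe set whose RefSeq accession maps to one of them was taken. Each of the 9 genes had 1 probe set, so they make up 9 of the 927 genes that could be named among 1259 probe sets on a focused glycogene array. The arrays were hybridised with RNA from HCT116, an established colorectal cancer cell line with microsatellite instability, carrying a gene that doxycycline can switch on. By the sample titles that gene is wild-type ACVR2, an activin receptor gene that such tumours often lose through mutation; the source labels name AIM2 and TGFBR2 beside it, so the identity of the induced gene rests on the titles. The groups were 3 arrays from cells given doxycycline and activin A (+DOX) and 3 arrays from cells given activin A without doxycycline (-DOX). Both groups carried the inducible construct and both received activin A, which binds that receptor. No group was given doxycycline without the construct, so the drug and the induced gene cannot be told apart. The labels give no dose and no time of induction, and they do not say whether the replicates were separate cultures or whether the line was a single clone, so the p-values refer to the scatter among these arrays, part or all of which may be technical.

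Cells take up glucose and trap it as a phosphate, and that phosphate feeds both glycolysis and the synthesis of sugar donors. Hexokinase makes glucose 6-phosphate, and glucose phosphate isomerase converts it to fructose 6-phosphate. From there mannose phosphate isomerase, phosphomannomutase and GDP-mannose pyrophosphorylase lead to GDP-mannose, the donor for N-glycan precursors, glycosylphosphatidylinositol anchors and, after conversion, GDP-fucose. UDP-glucose pyrophosphorylase draws on glucose phosphate by another route, and UDP-glucose serves glycogen, glycolipids and glycoprotein folding, or is oxidised to UDP-glucuronate for proteoglycan chains.

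Phosphomannomutase and GDP-mannose pyrophosphorylase each come as a pair of related genes, and the stretch before the start of each of these 4 genes is shown because the pairs are compared below. Each sequence is the 250 bases before the RefSeq start in GRCh38.p14, read 5′ to 3′ on the gene's strand. Capitals mark the GC box, GGGCGG on either strand.
PMM1 (chr22:41589841-41590090, minus strand): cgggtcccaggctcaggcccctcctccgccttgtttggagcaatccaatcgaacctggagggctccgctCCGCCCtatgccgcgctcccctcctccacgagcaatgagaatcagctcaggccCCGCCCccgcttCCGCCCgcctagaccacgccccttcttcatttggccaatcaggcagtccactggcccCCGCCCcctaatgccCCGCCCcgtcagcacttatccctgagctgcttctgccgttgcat
PMM2 (chr16:8797589-8797838, plus strand): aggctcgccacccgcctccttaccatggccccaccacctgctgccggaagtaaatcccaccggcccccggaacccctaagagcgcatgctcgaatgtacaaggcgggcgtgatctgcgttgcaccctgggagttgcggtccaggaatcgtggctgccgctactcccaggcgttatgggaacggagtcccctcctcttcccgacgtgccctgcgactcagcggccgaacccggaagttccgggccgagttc
GMPPA (chr2:219498641-219498890, plus strand): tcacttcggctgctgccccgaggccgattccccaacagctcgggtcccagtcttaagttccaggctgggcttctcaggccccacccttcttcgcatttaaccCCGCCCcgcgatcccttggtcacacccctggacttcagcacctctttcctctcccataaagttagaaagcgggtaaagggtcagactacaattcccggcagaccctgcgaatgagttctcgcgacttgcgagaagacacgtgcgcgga
GMPPB (chr3:49723952-49724201, minus strand): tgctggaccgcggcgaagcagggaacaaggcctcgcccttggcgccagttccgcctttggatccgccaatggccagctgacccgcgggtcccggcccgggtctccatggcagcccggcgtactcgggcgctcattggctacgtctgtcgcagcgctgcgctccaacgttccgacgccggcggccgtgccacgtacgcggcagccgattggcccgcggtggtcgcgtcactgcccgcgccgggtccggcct

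The PMM1 stretch held 5 GC boxes and the PMM2 stretch 0, while GMPPA had 1 and GMPPB 0. Of all 35116 windows of this length in the RefSeq table, 42.6% held at least 1. The motif CAGAC, the core of a sequence that SMAD proteins bind downstream of activin receptors, was searched on both strands. It matched 2 times before GMPPA, 1 time before GMPPB and 0 times before PMM1 and PMM2, and 38.0% of all windows held it. CCAAT matched 3 times before GMPPB and 2 times before PMM1, against a share of 32.0% of all windows. Over the 16 windows of the 9 genes, of which HK1 alone has 7 alternative starts and UGP2 has 2, 4 held CAGAC and 7 the GC box. These are matches of letters in a window and not binding sites, and the start used in these cells is not known.

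The probe set for ACVR2A was not higher on the +DOX arrays. Its replicates 1, 2 and 3 read 8.15, 8.02 and 8.08 on +DOX arrays, against 8.25, 8.07 and 8.70 on -DOX arrays, a difference of -0.26 log2 units (limma, adjusted p = 0.710) that was -0.08 without -DOX replicate 3. Whether its probes lie in the introduced sequence is not known, so it does not check the labels. Replicate 3 of the -DOX group also stood apart across all probe sets. It correlated with the other 5 arrays at 0.982 to 0.991, while these 5 correlated with each other at 0.995 to 0.999. It gave the highest or the lowest of the 6 values for 61.6% of all probe sets. Of 11 colon epithelial markers listed only LGALS4 and MUC2 were measured, at 7.30 and 7.27 on +DOX arrays and 7.30 and 7.29 on -DOX arrays, below the lowest array median of 7.61, so the labelled cell type could not be checked from them. The 5 measured markers of other cells had differences between -0.09 and 0.01.

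None of the 9 genes differed between +DOX and -DOX cells beyond an adjusted p of 0.05. The count was 0 of 9 with limma, beside 0 of all 1259 probe sets (0%), with adjusted p-values of the 9 genes between 0.477 and 0.764. At an unadjusted p under 0.05 it was 1 of 9, HK1, beside 7.78% of all probe sets. On the +DOX arrays 5 of the 9 genes had higher means and 4 had lower ones, with a median difference of 0.09 log2 units, where 45.4% of all probe sets were higher with a median of -0.01. Hexose entry had 0 of 2 genes higher, the GDP-mannose branch 4 of 5 and the UDP-glucose branch 1 of 2. All 9 genes lay above the array median on every array, and the lowest value of any was 8.72, so none was a dim probe set. The 6 arrays limit the precision, and the 95% interval of a difference reached a median of 0.287 log2 units to either side.

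**Figure D1:**
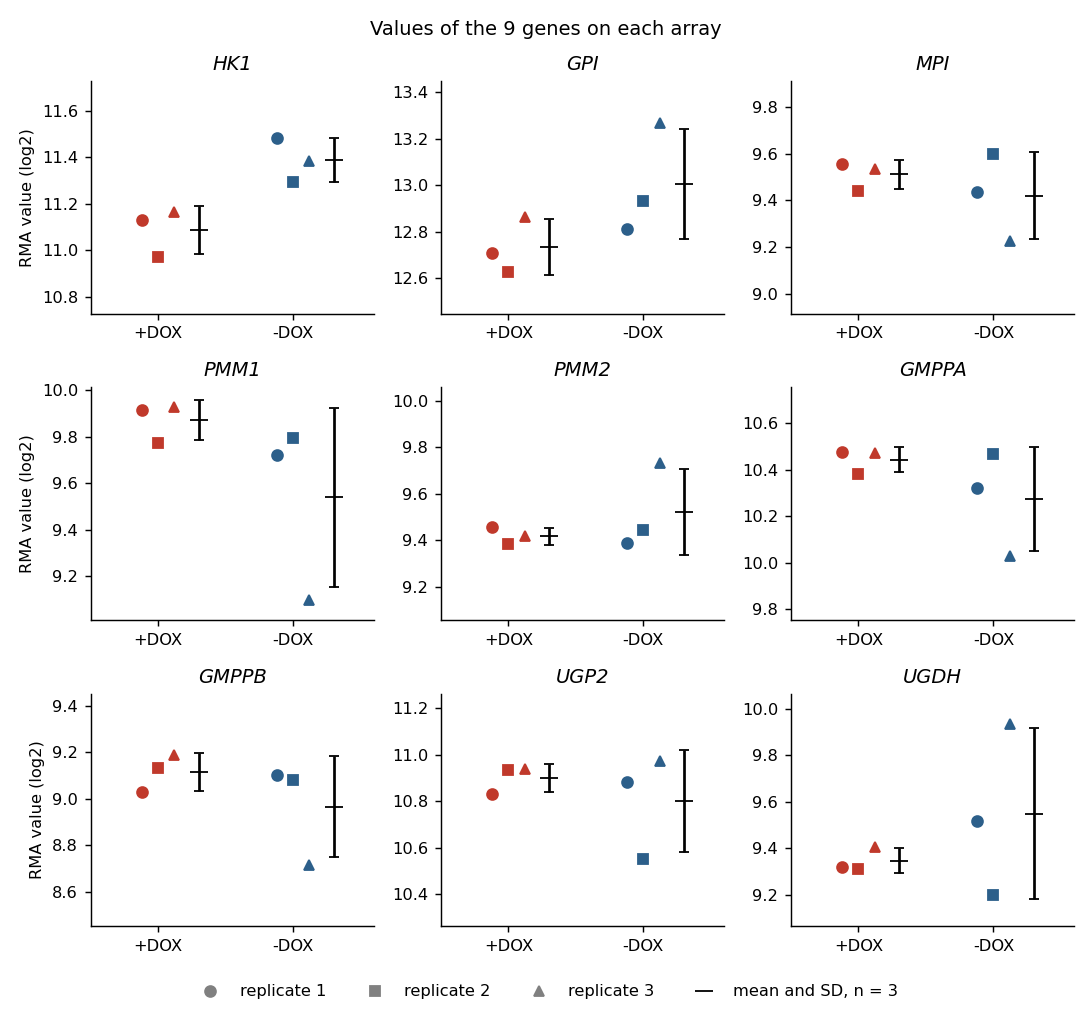
RMA values (log2, vertical axis, 1 log2 unit in every panel) of the 9 genes on each of the 3 +DOX arrays (red) and 3 -DOX arrays (blue), with the replicate number as marker shape and mean and SD beside them. In HK1 the groups do not overlap, while in PMM1, GMPPB and UGDH replicate 3 of the -DOX group lies far from the other arrays.

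HK1, the hexokinase that phosphorylates glucose and other hexoses on entry, was the only one of the 9 genes whose groups did not overlap. It read 11.13, 10.97 and 11.16 for replicates 1, 2 and 3 on +DOX arrays, against 11.48, 11.29 and 11.38 on -DOX arrays. Every +DOX array thus lay below every -DOX array. A pattern of that kind in the same direction occurred in 8.26% of all probe sets, and in either direction in 15.8%, so 1 gene in 9 is close to the background. No gene of the 9 lay wholly above the -DOX arrays, a pattern seen in 7.55% of all probe sets. The mean was 11.09 ± 0.10 with doxycycline and 11.39 ± 0.09 without (SD, n = 3 each), 1.23-fold higher in -DOX cells. The difference of -0.30 log2 units had a 95% interval from -0.48 to -0.12 and did not pass (limma, adjusted p = 0.477). An exact permutation test gave p = 0.1, the lowest possible for 3 arrays against 3. By unadjusted p it ranked 18 of 1259. The array that stood apart, -DOX replicate 3, lay only -0.0062 log2 units from the mean of the other -DOX arrays in HK1. Without it the difference was again -0.30, with an interval from -0.52 to -0.08 (limma, adjusted p = 0.360).

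Among the 918 genes outside the 9, those whose 6 values, centred on their mean, followed HK1 most closely were POMT1, MST1R and NOTCH1. POMT1 encodes a subunit of the enzyme that begins O-mannose chains, MST1R the receptor tyrosine kinase RON, and NOTCH1 a Notch receptor. Their root mean square distances from HK1 over the 6 arrays were 0.046, 0.048 and 0.053 log2 units, where the median gene lay at 0.183. Their differences were -0.23, -0.32 and -0.30 log2 units, and none passed (limma, adjusted p = 0.477, 0.244 and 0.474). Since they were picked for following HK1, whose groups do not overlap, their own separated groups and like differences follow from that choice and are no further result. Within the 9 genes the closest to HK1 were GPI at 0.165 and PMM2 at 0.168, and the farthest was PMM1 at 0.392.

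**Figure D2:**
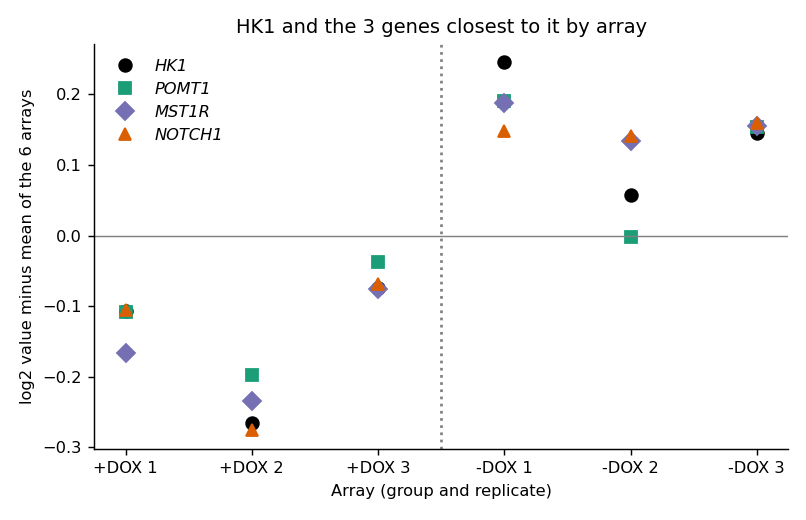
Values of HK1 and of the 3 genes closest to it, each centred on its mean over the 6 arrays (log2, vertical axis), by array (horizontal axis, +DOX arrays left of the dotted line and -DOX arrays right of it). In HK1 replicate 2 is the lowest array of both groups, at -0.27 with doxycycline and 0.06 without.

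GPI, the isomerase that turns glucose 6-phosphate into fructose 6-phosphate and so stands where the mannose route leaves glycolysis, also had a lower mean with doxycycline. It read 12.71, 12.63 and 12.86 on +DOX arrays, against 12.81, 12.93 and 13.27 on -DOX arrays. The groups overlapped by a single array on each side, since +DOX replicate 3 lay above -DOX replicate 1. The difference was -0.27 log2 units with an interval from -0.60 to 0.06 (limma, adjusted p = 0.682). Replicate 3 of the -DOX group was the highest of all 6 arrays, and without it the difference was -0.14. Of 28 other listed genes of hexose and glycogen metabolism 3 were measured, 1 higher and 2 lower, with 0 past the threshold. LDHA, which makes lactate at the end of glycolysis, read 13.638, 13.627 and 13.675 on +DOX arrays and 13.706, 13.677 and 13.906 on -DOX arrays. Its groups were narrowly apart, as in 1 of these 3 genes, beside 15.8% of all probe sets. The LDHA difference of -0.12 was -0.04 without -DOX replicate 3. PGM1, which interconverts glucose phosphates ahead of UGP2, was at -0.04 and the hexokinase gene HK3 at 0.01, and both turned without that array, PGM1 to 0.08 and HK3 to -0.0047.

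In the GDP-mannose branch MPI, PMM1, GMPPA and GMPPB had higher means on +DOX arrays and PMM2 a lower one, and in all 5 genes replicate 3 of the -DOX group was the array farthest from the rest. That array gave the lowest value of MPI, PMM1, GMPPA and GMPPB and the highest value of PMM2. It lay -0.29, -0.66, -0.36 and -0.38 log2 units from the mean of the other -DOX arrays for MPI, PMM1, GMPPA and GMPPB, and 0.32 for PMM2. The median difference of the branch was 0.15 with all arrays and 0.02 without that array.

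MPI makes mannose 6-phosphate from fructose 6-phosphate. It read 9.56, 9.44 and 9.54 on +DOX arrays, against 9.43, 9.60 and 9.23 on -DOX arrays. The highest and the lowest array were both from -DOX cells, so all +DOX values lay inside the -DOX range. The difference of 0.09 log2 units (95% interval -0.16 to 0.34; limma, adjusted p = 0.749) was -0.0061 without -DOX replicate 3.

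PMM1 and PMM2 both encode phosphomannomutases, which move the phosphate of mannose 6-phosphate to the first carbon. PMM2 is the enzyme whose loss causes the most common congenital disorder of N-glycosylation. PMM1 read 9.92, 9.77 and 9.93 on +DOX arrays, against 9.72, 9.80 and 9.10 on -DOX arrays. It had the largest difference of the 9 genes, 0.33 log2 units, but its interval ran from -0.15 to 0.82 (limma, adjusted p = 0.692), since the -DOX values spread with an SD of 0.38 against 0.09 with doxycycline. Without -DOX replicate 3 it was 0.11, with an interval from -0.05 to 0.27. PMM2 read 9.45, 9.38 and 9.42 on +DOX arrays, against 9.39, 9.45 and 9.73 on -DOX arrays. Its difference of -0.10 (95% interval -0.34 to 0.14; limma, adjusted p = 0.730) was 0.00162 without that array.

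The log2 ratio of PMM2 to PMM1 within an array differed by -0.44 between +DOX and -DOX cells. Centred on its mean over the 6 arrays it was -0.22, -0.15 and -0.27 on +DOX arrays, against -0.10, -0.12 and 0.87 on -DOX arrays. The groups did not overlap, but the -DOX arrays 1 and 2 lay much nearer to the +DOX arrays than to -DOX array 3. The exact two-sided permutation p was 0.1, the smallest this design allows, and 0.2 after adjustment over the 2 gene pairs. Without -DOX replicate 3 the difference of the ratio was -0.11.

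GMPPB is the catalytic subunit of GDP-mannose pyrophosphorylase, which joins mannose phosphate to GTP, and GMPPA is its regulatory partner, which senses GDP-mannose and holds the enzyme back. GMPPA read 10.48, 10.38 and 10.47 on +DOX arrays, against 10.32, 10.47 and 10.03 on -DOX arrays. GMPPB read 9.03, 9.13 and 9.19 on +DOX arrays, against 9.10, 9.08 and 8.72 on -DOX arrays. Both had overlapping groups and their lowest value on -DOX replicate 3. The differences were 0.17 for GMPPA (95% interval -0.12 to 0.46; limma, adjusted p = 0.710) and 0.15 for GMPPB (95% interval -0.14 to 0.44; limma, adjusted p = 0.730), and 0.05 and 0.02 without that array. The log2 ratio of GMPPB to GMPPA differed by -0.02 between +DOX and -DOX cells (exact two-sided permutation p = 0.9, also after adjustment over the 2 pairs), and -DOX replicate 3 lay between the other -DOX arrays. The 2 subunit genes shared the low reading of that array, whereas PMM1 was low and PMM2 high on it.

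**Figure D3:**
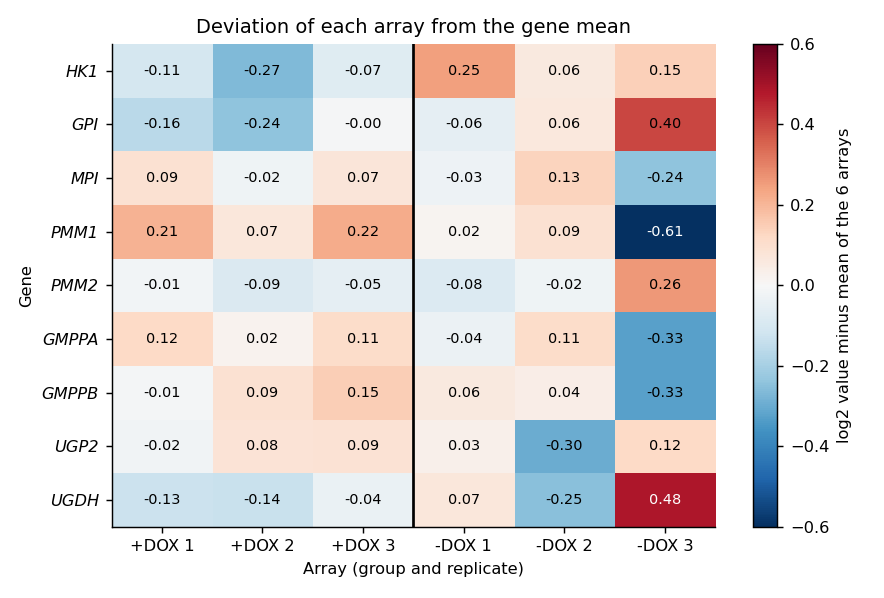
Deviation of each array (columns, +DOX arrays 1 to 3 and then -DOX arrays 1 to 3) from the mean of its gene over the 6 arrays (rows, log2 units, colour and printed value). The -DOX replicate 3 column holds the largest deviations, from -0.61 in PMM1 to 0.48 in UGDH, while in HK1 and UGP2 replicate 2 of a group deviates more, at -0.27 (+DOX) and -0.30 (-DOX).

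UGP2 joins glucose 1-phosphate to UTP and so makes UDP-glucose. It read 10.83, 10.93 and 10.94 on +DOX arrays, against 10.88, 10.55 and 10.97 on -DOX arrays. Here -DOX replicate 2 was the low array, while replicate 3 was the highest of the 6. The difference was 0.10 log2 units (95% interval -0.19 to 0.39; limma, adjusted p = 0.764), 0.18 without -DOX replicate 3 and -0.025 without -DOX replicate 2. UGDH oxidises UDP-glucose to UDP-glucuronate, the sugar that alternates with amino sugars in heparan sulphate, chondroitin sulphate and hyaluronan. It read 9.32, 9.31 and 9.41 on +DOX arrays, against 9.52, 9.20 and 9.93 on -DOX arrays. Both the highest and the lowest array were again from -DOX cells. The difference of -0.20 (95% interval -0.66 to 0.26; limma, adjusted p = 0.730) was -0.01 without -DOX replicate 3.

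**Figure D4:**
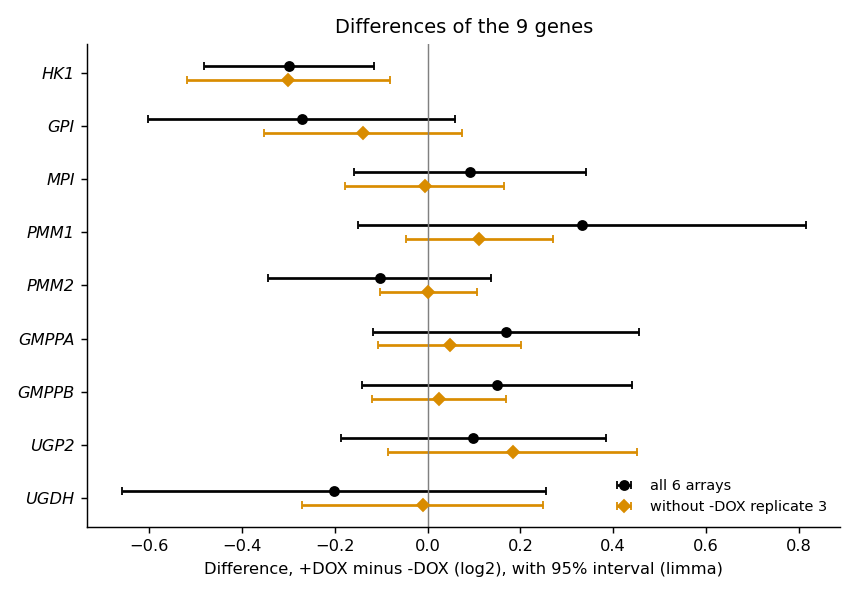
Difference of each of the 9 genes, +DOX minus -DOX (log2, horizontal axis), with its 95% interval from limma, for all 6 arrays (circles) and without -DOX replicate 3 (diamonds). With both sets of arrays HK1 is the gene whose interval lies below 0, at -0.30 each time, while the PMM1 difference is 0.33 with all arrays and 0.11 without that replicate.

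The spread of the 9 genes was wider in -DOX than in +DOX cells for 8 of 9, HK1 being the exception. The SD of 3 arrays ran from 0.037 to 0.121 log2 units with doxycycline and from 0.094 to 0.384 without it. Its median over the 9 genes was 0.062 with and 0.220 without doxycycline, where all probe sets had medians of 0.046 and 0.090. All probe sets include dimmer ones, whereas the 9 genes all lay above the array median. The share of all probe sets with a wider spread in -DOX cells was not computed. Replicate 3 of the -DOX group was the highest or lowest of the 6 arrays for 8 of the 9 genes, beside 61.6% of all probe sets. Leaving it out shrank the difference by more than 1.5 times, or turned it, for 7 of the 9 genes, all but HK1 and UGP2. The like share of all probe sets was not computed, so this count is not read as a trait of the 9 genes. The number with higher means was again 5 of 9, and the median difference was 0.00162. What set that array apart was not tested.

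Genes that use or neighbour these sugars were then counted, by lists chosen with earlier results of these data known. Beside these counts, 45.4% of all probe sets had a higher mean on +DOX arrays. That share was not computed without -DOX replicate 3. Of 14 measured genes of GDP-mannose use 10 had higher and 4 lower means on +DOX arrays. Their median was 0.07, and 7 were higher without -DOX replicate 3, with a median of 0.0045. ALG11, a mannosyltransferase of the N-glycan precursor, was at 0.60 (SE 0.25) and did not pass (limma, adjusted p = 0.669). It read 7.81, 8.22 and 7.21 on +DOX arrays, against 7.13, 7.07 and 7.26 on -DOX arrays, so its groups overlapped. Its -DOX values and its +DOX replicate 3 lay below the lowest array median of 7.61. ALG1, which adds the first mannose, was at 0.08 (SE 0.04). DPM3, a subunit of the synthase that moves mannose from GDP-mannose to dolichol phosphate, read 10.45, 10.40 and 10.58 on +DOX arrays, against 10.27, 10.33 and 9.14 on -DOX arrays. Its groups did not overlap, and its difference of 0.57 (SE 0.33; limma, adjusted p = 0.692) was 0.18 without -DOX replicate 3, its lowest array. That array was the highest or lowest for 61.6% of all probe sets. Separated groups occurred in 1 of the 14 genes, beside 15.8% of all probe sets, and DPM3 was named for its small unadjusted p.

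Of 12 measured genes of UDP-glucose use and UDP-galactose supply 10 had higher and 2 lower means. The median was 0.07 both with all arrays and without -DOX replicate 3, when 7 were higher. ALG8, a glucosyltransferase of the N-glycan precursor, was at 0.18 and 0.10 without that array (limma, adjusted p = 0.669 with all arrays). SLC35B1, a transporter gene of the endoplasmic reticulum, was at 0.31, and at 0.14 without -DOX replicate 3. Separated groups occurred in 4 of the 12 genes, ALG8 and SLC35B1 among them, beside 15.8% of all probe sets. This count was not tested, and both genes were named for their small unadjusted p.

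Of 23 measured genes listed around UDP-glucuronate and UDP-xylose, not all of which take these sugars themselves, 11 had higher and 12 lower means. The median was -0.01. EXTL3, which acts at the start of heparan sulphate chains, read 9.90, 9.79 and 10.02 on +DOX arrays, against 10.12, 10.09 and 10.08 on -DOX arrays. As in HK1, no +DOX array reached the lowest -DOX array, and the difference of -0.19 (SE 0.07; limma, adjusted p = 0.562) was -0.20 without -DOX replicate 3. Separated groups occurred in 3 of the 23 genes, beside 15.8% of all probe sets, and EXTL3 was named for its small unadjusted p. SLC35D1, which carries UDP-glucuronate into the endoplasmic reticulum, was at 0.10 and SLC35B4, a UDP-xylose and UDP-GlcNAc transporter, at -0.34, and without that array they were at 0.05 and -0.16.

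The aminosugar branch, which leaves glycolysis at the same fructose 6-phosphate as the mannose route, had 7 of 10 measured genes higher and 3 lower, with a median of 0.05 that was 0.02 without -DOX replicate 3. The N-acetylglucosamine kinase gene NAGK read 9.92, 10.06 and 9.99 on +DOX arrays, against 9.59, 9.67 and 9.02 on -DOX arrays. The sialic acid synthase gene NANS read 10.63, 10.67 and 10.69 on +DOX arrays, against 10.45, 10.37 and 9.81 on -DOX arrays. Neither gene had overlapping groups, and -DOX replicate 3 was the lowest array in both. These were the only 2 of the 10 genes with separated groups, beside 15.8% of all probe sets. Both genes were named for their small unadjusted p. Neither passed (limma, adjusted p = 0.478 and 0.590), and without that array their differences were 0.37 and 0.25, against 0.57 and 0.45 with it. GFPT2, one of the enzymes that start the route, was at -0.13 and at -0.015 without that array. Across these 5 lists 0 genes passed the threshold in either direction.

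**Figure D5:**
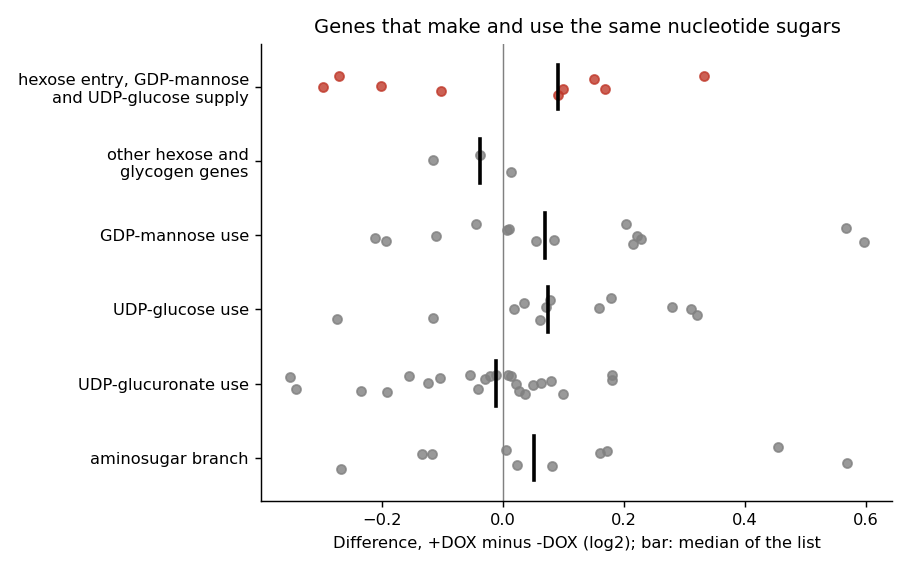
Difference of each measured gene, +DOX minus -DOX (log2, horizontal axis), for the 9 genes (red, top row) and for 5 lists of genes that use or neighbour the same sugars (grey), with a bar at the median of each list. The 9 genes run from -0.30 in HK1 to 0.33 in PMM1, and the largest differences of the lists, 0.60 in ALG11 and 0.57 in DPM3 and NAGK, lie outside that range.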

How the data were processed

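The deposited values are log2 expression values that the authors made with RMA, per the submitters' processing notes. RMA corrects background, quantile normalizes arrays and summarises each probe set. Its version, any further steps, scanner files and detection calls are not given in the sources used here. Total RNA was extracted with Trizol and labelled as biotinylated cRNA, per the labels' protocols. Probe sets were named by RefSeq accession, version dropped, through a GRCh38.p14 gene table: 1043 of 1259 (82.8%) had 1 symbol. Where a gene had several probe sets, the brightest on average stood for it.

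Groups were taken from the sample titles and compared in R 4.3.3 with limma 3.58.1 (lmFit, eBayes, two-sided) over all 1259 probe sets, without a block, with Benjamini-Hochberg adjustment at 0.05. The fit was tested on simulated data. Exact permutation tests covered single values. The number of arrays limits the precision. No label says that the replicate numbers pair the arrays, so they were not taken as pairs. Deviations of same-numbered arrays from their group means correlated at -0.15, -0.04 and -0.16. With so few arrays per group that cannot exclude pairing.

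The members and lists were chosen with earlier results of these data known. Named genes are all members, the 3 genes of each list with the smallest unadjusted p, any past the threshold, and the 3 genes closest to the leading member. ACVR2A was added as the study's gene. 1 gene picked by this rule is not reported here. Alternatives were centring, renewed quantile normalization, array weights, a replicate block, a filter on dim probe sets, trended robust moderation, averaging of probe sets and leaving out each array. Averaging could change nothing for the 9 members, which have 1 probe set each. Sequences are from RefSeq (GRCh38.p14), which had all 9 members.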

Additional observations from a re-analysis of the deposited data

How the results depend on the processing

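With limma, 0 probe sets of the 1259 tested (944 with the filter on dim probe sets) and 0 of the 9 genes passed in every setting but array weights, where 1 probe set passed, which is none of the 9 genes (unadjusted p under 0.05: 98 probe sets as reported, 81 with the replicate block, 246 with array weights, whose estimation stopped before it converged). Array weights also gave PMM2 a difference of 0.0097 and the 9 genes a median of 0.015, with 6 of them higher. Adding the replicate number as a block left HK1 at -0.30 (limma, adjusted p = 0.604) and changed no call. No label says whether the numbers pair the samples. Deviations correlated above 0.1 in 0 of 3 same-numbered pairs, which cannot exclude pairing with so few arrays. Over all alternatives the adjusted p of HK1 ran from 0.0753 with array weights to 0.903. Leaving out each array in turn gave differences from -0.34 to -0.24 for HK1, -0.37 to -0.14 for GPI, -0.0061 to 0.18 for MPI, 0.11 to 0.46 for PMM1, -0.17 to 0.00162 for PMM2, 0.05 to 0.27 for GMPPA, 0.02 to 0.22 for GMPPB, -0.025 to 0.18 for UGP2 and -0.38 to -0.01 for UGDH. MPI and PMM2 turned without -DOX replicate 3 and UGP2 without -DOX replicate 2. Over these fits without 1 array the median of the 9 genes ran from -0.025 without -DOX replicate 2 to 0.10, and 4 or 5 genes were higher. The PMM2 to PMM1 ratio ran from -0.60 to -0.11 and the GMPPB to GMPPA ratio from -0.059 to 0.043. The cause of these shifts was not tested. Centring each array moved the median of all probe sets to 0.01, against -0.01 as reported, and that of the 9 genes to 0.11, against 0.09.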

Other observations

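Within-array log2 ratios at the branch points were looked at after the values had been seen, so they are given without a test. The ratio of MPI to GPI, the enzymes that draw fructose 6-phosphate toward mannose and exchange it with glucose 6-phosphate, differed by 0.36 log2 units between +DOX and -DOX cells, and by 0.13 without -DOX replicate 3. Centred on its mean over the 6 arrays, it was 0.25, 0.22 and 0.08 on +DOX arrays, against 0.02, 0.07 and -0.64 on -DOX arrays. The ratio of UGDH to UGP2 differed by -0.30 and by -0.19 without that array. It was -0.11, -0.22 and -0.13 on +DOX arrays and 0.04, 0.05 and 0.36 on -DOX arrays, so its groups did not overlap although those of both genes alone did. The same held for MPI to GPI, but narrowly, with the lowest +DOX array at 0.075 and the highest -DOX array at 0.070. Groups did not overlap in 15.8% of single probe sets, and no such share was computed for ratios.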
